A study of Homo sapiens with 6 samples.

Results

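The Wnt ligands, the proteins that export them, their receptors and coreceptors, and the secreted inhibitors of the SFRP and DKK families were followed in LoVo cells labelled SHARPIN knockout and in LoVo cells labelled non-target. Members were chosen by gene symbol, and 41 of the 22496 symbols in the deposited lists matched. Of these 41 members, 18 were WNT ligands, 2 were the export genes PORCN and WLS, 9 were Frizzled receptors (FZD), 5 were the coreceptors LRP5, LRP6, ROR1, ROR2 and RYK, and 7 were SFRP or DKK inhibitors. A further 3 symbols of these families in the gene annotation, FZD10, SFRP2 and WNT8A, were not analysed here.

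The series holds 6 poly-A RNA libraries of LoVo, an established human colon adenocarcinoma line, with 3 libraries per genotype and no treatment in the labels. It asks how loss of SHARPIN, part of the enzyme complex that builds linear ubiquitin chains, changes gene expression. The knockout group carries the genotype label SHARPIN knockout, and the control group the label non-target. Whether the knockout was 1 clone or a pool of cells, and whether replicates came from separate cultures, the labels do not say, so the p-values speak only of how these 6 libraries vary, and that variation could be technical. LoVo is known to carry truncated APC, which holds in both groups and acts below the receptors.

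Wnt ligands are lipid-modified by the acyltransferase PORCN in the endoplasmic reticulum and carried to the cell surface by WLS. There they bind a Frizzled receptor, either with LRP5 or LRP6, which leads to stabilised beta-catenin, or with coreceptors such as ROR1, ROR2 and RYK, which act largely without beta-catenin. SFRP proteins bind the ligands themselves, and DKK1 blocks LRP5 and LRP6. In the colon this pathway maintains the stem cells of the crypt.

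Levels are given in FPKM (fragments per kilobase of transcript, scaled to the mapped fragments of the library), so genes can be compared per length. By an estimate from low values, the libraries held 21100000 to 22500000 fragments each, and 1 fragment in a transcript of 1 kb was worth 0.0445 to 0.0474 FPKM. The sum of FPKM was 425032, 416852 and 522919 in knockout replicates 1, 2 and 3, against 422109, 421585 and 431264 in non-target replicates 1, 2 and 3. The 10 colon epithelium markers summed to 4810 to 9650 FPKM in knockout and 4090 to 5250 FPKM in non-target, nearly all of it keratin (KRT8, KRT18 and KRT19). CDH17, an intestinal cadherin, had 11.1, 3.25 and 2.95 FPKM in knockout and 68.9, 53.9 and 49.0 FPKM in non-target, and GPA33, an intestinal surface antigen, had 2.48, 0.824 and 1.14 FPKM in knockout and 40.6, 52.1 and 47.3 FPKM in non-target. Each of the 10 reached 1 FPKM in at least 3 libraries, although CDX1 and VIL1 did so in non-target libraries only, at 0.053 to 0.104 and 0.354 to 0.718 FPKM in knockout. Marker sums stayed at 0.177 to 0.312 FPKM in knockout and 0.149 to 0.404 FPKM in non-target for 5 immune genes, and at 0.038 to 0.062 and 0.556 to 0.626 FPKM for 4 endothelial genes. The 4 erythroid genes, mostly HBA1, summed to 1.86 to 3.75 FPKM in knockout and 0.725 to 1.44 FPKM in non-target. The sum of 6 fibroblast genes was 0.234 to 0.794 FPKM in knockout and 7.75 to 18.7 FPKM in non-target. LUM made up most of it in non-target replicates 2 and 3, and replicate 1 also held COL1A1 and COL1A2, at 6.60 and 6.12 FPKM against at most 0.29 FPKM in any other library. The part of these marker differences in the results on the Wnt genes was not tested. Non-target replicates 2 and 3 were nearly alike, with a correlation across tested genes of 0.9968, and non-target replicate 1 stood apart from them. SHARPIN itself stood at 7.55, 11.9 and 18.05 FPKM in knockout replicates 1 to 3 and at 11.9, 13.9 and 12.9 FPKM in non-target replicates 1 to 3 (limma, adjusted p = 0.827), so its transcript level does not check the labels.

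In the libraries labelled knockout, transcripts of the Wnt ligands WNT9A, WNT5A and WNT7B, of both export genes, of the receptors FZD1 and FZD7 and of the inhibitors DKK1 and DKK3 were higher than in the non-target libraries. The coreceptor ROR2 was lower. Statistics were computed for the 25 members at 1 FPKM or more in at least 3 libraries. Of these 25, 9 rose (36%) and 1 fell (4%), and 15 did not pass an adjusted p of 0.05 (limma on log2(FPKM + 1), Benjamini-Hochberg over all tested genes). Over all 13092 tested genes 6.26% rose and 5.93% fell. The member that fell, ROR2, reached 1 FPKM in non-target libraries only, so it had to differ to be tested, and its fall is a description. The median log2 fold change was 0.46 over the 25 members and 0.02 over all genes. Knockout and non-target values were fully separate in 15 of the 25, against 32.1% of all tested genes.

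**Figure D1:**
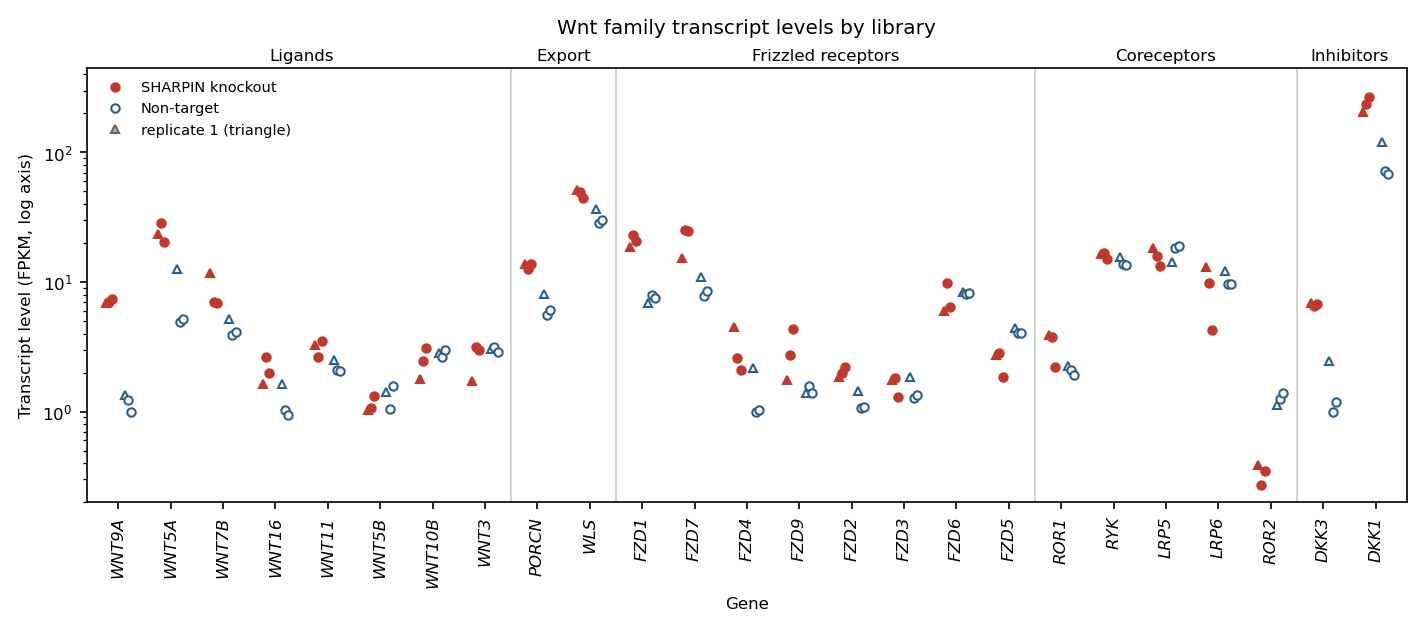
Transcript level of the 25 tested Wnt family genes in FPKM on a log axis, with 1 point per library, filled red for SHARPIN knockout and open blue for non-target, in the order of replicates 1 to 3 from left to right within each genotype and with replicate 1 drawn as a triangle. The 3 knockout points of WNT9A lie between 6.88 and 7.40 FPKM, above the 3 non-target points, and the non-target triangle of WNT5A stands above the other non-target points.

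Among the ligands, 3 of 8 tested members rose, 0 fell and 5 did not pass. WNT9A, a ligand known from limb joint formation, is encoded on chromosome 1 at 228106357 to 228135633 (GRCh37). It stood at 6.88, 7.03 and 7.40 FPKM in knockout replicates 1, 2 and 3, against 1.35, 1.22 and 0.996 FPKM in non-target replicates 1, 2 and 3. Its replicates were close in both groups and the groups were far apart, by 1.89 ± 0.16 log2 units (SE, n = 3 per group; limma, adjusted p = 0.000117). On the log2(FPKM + 1) scale such a change is understated for low genes, and the ratio of the mean levels was 5.99.

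WNT5A, the main ligand of beta-catenin-independent signalling, lies on chromosome 3 at 55499743 to 55524567 and was the most abundant ligand of the knockout libraries. Its level was 23.3, 28.6 and 20.5 FPKM in knockout replicates 1 to 3, against 12.7, 4.88 and 5.22 FPKM in non-target replicates 1 to 3. Non-target replicate 1 lay between the other non-target libraries and the knockout libraries, at 2.52 times the mean of the other 2. By limma the knockout libraries differed by 1.65 ± 0.31 on the log2 scale (SE; adjusted p = 0.00697), and 2.04 without non-target replicate 1 (adjusted p = 0.000835). Without knockout replicate 2 the adjusted p was 0.0566. COL1A1 and COL1A2 were also highest in non-target replicate 1, and their part in this value was not tested.

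WNT7B, a ligand of epithelial cells that acts through beta-catenin, had 11.7, 6.96 and 6.92 FPKM in knockout replicates 1 to 3, against 5.16, 3.88 and 4.14 FPKM in non-target replicates 1 to 3. The groups did not overlap, with knockout replicate 1 far above the other knockout libraries. The fitted log2 difference came to 0.79 ± 0.22 (SE, limma; adjusted p = 0.0482), but the call was lost without any 1 of the 6 libraries (adjusted p up to 0.172), with TPM scaling (0.127) and with non-target replicates 2 and 3 counted as 1 (0.164).

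The other 5 tested ligands stayed between 0.946 and 3.52 FPKM in all 6 libraries. WNT16 had 1.63, 2.63 and 1.97 FPKM in knockout and 1.63, 1.03 and 0.946 FPKM in non-target, with knockout replicate 1 and non-target replicate 1 nearly level (log2 fold change 0.48, 95% interval 0.06 to 0.91, adjusted p = 0.142). With the replicate number as a block its adjusted p was 0.0352. Values from the block rest, here and below, on a pairing that no label states. In that fit 86.4% of genes took their spread wholly from other genes. WNT11, another ligand of the beta-catenin-independent kind, had 3.27, 2.61 and 3.52 FPKM in knockout and 2.49, 2.08 and 2.05 FPKM in non-target, without overlap (0.36, -0.02 to 0.75, adjusted p = 0.223). Exons of WNT11 overlap an annotated transcript on the other strand. WNT3, WNT10B and WNT5B overlapped between the groups, with log2 fold changes of -0.18, -0.16 and -0.13 and intervals that span 0. WNT3, a ligand of the crypt, had 1.71, 3.17 and 2.98 FPKM in knockout and 3.06, 3.14 and 2.89 FPKM in non-target, with knockout replicate 1 alone below the rest.

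The summed level of all 18 ligands was 53.9, 56.6 and 49.8 FPKM in knockout replicates 1 to 3, against 32.5, 21.0 and 22.2 FPKM in non-target replicates 1 to 3. WNT5A made up 43.3%, 50.5% and 41.2% of this sum in knockout and 39.1%, 23.2% and 23.5% in non-target. WNT9A made up 12.8%, 12.4% and 14.9% in knockout and 4.14%, 5.79% and 4.49% in non-target. Without WNT5A, WNT7B and WNT9A the remaining 15 ligands summed to 13.6 ± 1.52 FPKM in knockout and 12.1 ± 1.15 FPKM in non-target (SD, n = 3 each). Those 3 genes were taken out because they had risen, so the remainder is a description.

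**Figure D2:**
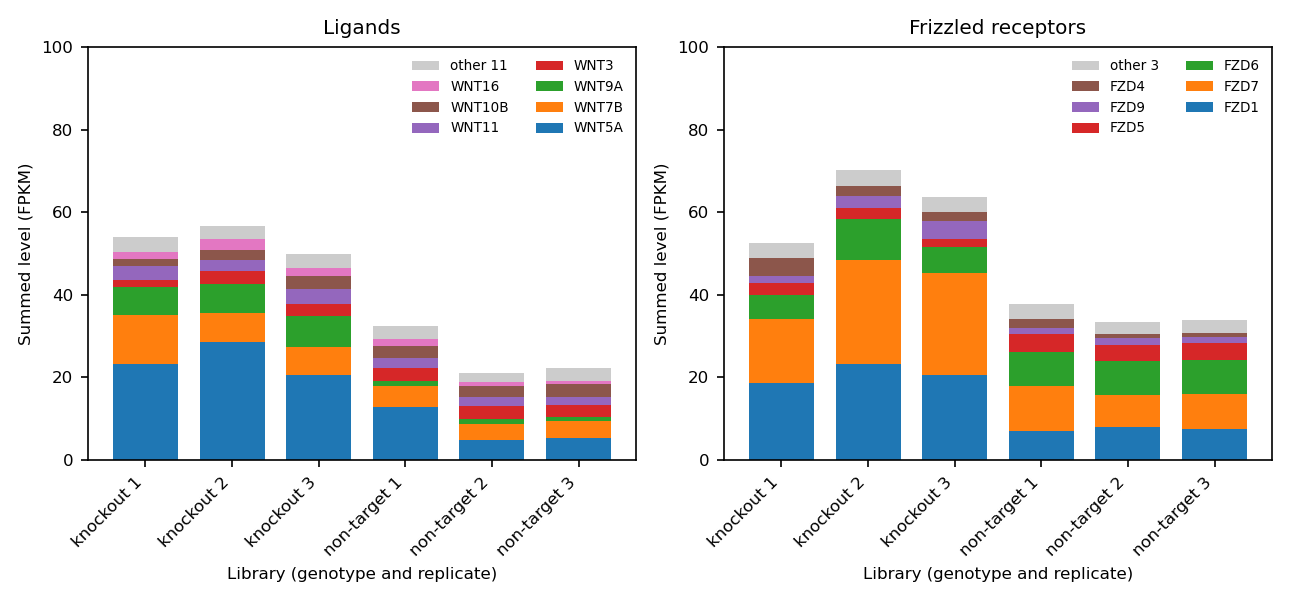
Stacked bars of the summed FPKM of the 18 ligands (left) and the 9 Frizzled receptors (right) in each library, with knockout replicates 1 to 3 left of non-target replicates 1 to 3 and the most abundant genes coloured. WNT5A (blue, left) and FZD1 with FZD7 (blue and orange, right) are taller in the 3 knockout bars than in the 3 non-target bars.

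Some ligand genes lie in neighbouring pairs in the genome, and the members of these pairs differed widely in level. WNT3A lies 59.1 kb from WNT9A on chromosome 1, and it had 0.029, 0.016 and 0.031 FPKM in knockout and 0.03, 0.008 and 0 FPKM in non-target, or an estimated 2.02 fragments at most. WNT10B, at 1.78 to 3.09 FPKM in knockout and 2.63 to 2.97 FPKM in non-target, lies 6.59 kb from WNT1, which was unlisted in knockout and at 0.01 to 0.039 FPKM in non-target. WNT9B, next to WNT3 on chromosome 17, had at most 0.027 FPKM in either group. WNT6 and WNT10A lie 6.62 kb apart, and WNT6 was listed in 1 library, at 0.023 FPKM in non-target replicate 3.

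Of the 18 ligands, 10 did not reach the level for testing. WNT2B had 1.12, 1.14 and 0.759 FPKM in knockout and 0.892, 0.416 and 0.734 FPKM in non-target, with overlap. WNT10A had 0.532 to 0.852 FPKM in knockout and 0.339 to 0.591 FPKM in non-target, and WNT4 had 0.238 to 0.571 and 0.06 to 0.277 FPKM. The other 7 (WNT1, WNT2, WNT3A, WNT6, WNT7A, WNT8B and WNT9B) stayed below 0.2 FPKM in all 6 libraries. WNT7A was listed in the knockout libraries only, at 0.026, 0.041 and 0.053 FPKM, and WNT2 in non-target replicates 1 and 2 only, at 0.016 and 0.034 FPKM, levels at which few fragments decide.

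Both genes of ligand export rose. PORCN, the acyltransferase that every Wnt ligand is thought to need, had 13.9, 12.6 and 13.8 FPKM in knockout replicates 1 to 3, against 8.11, 5.61 and 6.06 FPKM in non-target replicates 1 to 3. In the limma fit the difference was 0.94 ± 0.18 log2 units (SE; adjusted p = 0.00736), and on the same 13092 genes no library left out ended the call (adjusted p up to 0.0486). With the level filter recomputed, the adjusted p was 0.0588 without non-target replicate 2 and 0.0535 without non-target replicate 3. WLS, the carrier, had 51.7, 49.6 and 44.7 FPKM in knockout and 36.5, 28.7 and 29.9 FPKM in non-target. The groups did not overlap, and WLS rose by 0.61 ± 0.16 log2 units (SE; limma, adjusted p = 0.0419). The call for WLS ended with TPM scaling (adjusted p = 0.130), with non-target replicates 2 and 3 counted as 1 (0.224) and on leaving out knockout replicate 1 or 2, or non-target replicate 2 or 3 (highest adjusted p 0.232). Exons of WLS overlap the antisense gene GNG12-AS1.

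Of 8 tested Frizzled receptors, 2 rose, 0 fell and 6 did not pass. FZD1, a receptor of beta-catenin signalling encoded on chromosome 7 at 90893748 to 90900641, had 18.6, 23.1 and 20.6 FPKM in knockout replicates 1 to 3, against 6.90, 7.91 and 7.50 FPKM in non-target replicates 1 to 3. Non-target replicate 1 was here the lowest library, at 0.895 times the mean of the other non-target libraries. By limma the knockout libraries differed by 1.37 ± 0.16 on the log2 scale (SE; adjusted p = 0.000541). FZD7, which mediates Wnt signalling in intestinal stem cells of the mouse, had 15.4, 25.3 and 24.6 FPKM in knockout and 10.9, 7.86 and 8.51 FPKM in non-target. It rose by 1.15 ± 0.22 on the log2 scale (SE; limma, adjusted p = 0.00794), and the adjusted p was 0.0523 without knockout replicate 2.

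FZD1 and FZD7 together made up 64.6%, 68.9% and 71.2% of the summed receptor level in knockout replicates 1 to 3, against 47.1%, 47.3% and 47.3% in non-target replicates 1 to 3. The sum of all 9 receptors was 62.2 ± 8.94 FPKM in knockout and 35.0 ± 2.40 FPKM in non-target (SD, n = 3 each). FZD6, which can restrain beta-catenin signalling, had 6.01, 9.81 and 6.39 FPKM in knockout and 8.37, 8.07 and 8.28 FPKM in non-target, with the knockout values on both sides of the non-target ones (log2 fold change -0.16, 95% interval -0.61 to 0.28, adjusted p = 0.662). Its share of the receptor sum was 11.4%, 14.0% and 10.1% in knockout and 22.2%, 24.2% and 24.5% in non-target.

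FZD5, a receptor with a role in Paneth cells of the mouse intestine, did not pass. It had 2.75, 2.83 and 1.85 FPKM in knockout and 4.38, 4.03 and 4.03 FPKM in non-target, without overlap (log2 fold change -0.58, 95% interval -0.99 to -0.17, adjusted p = 0.0717, and 0.0178 with a replicate block). FZD8, a receptor related to FZD5, did not reach the level for testing and had 0.028, 0.132 and 0.127 FPKM in knockout and 0.344, 0.591 and 0.668 FPKM in non-target, without overlap. Its 1 transcript places an estimated 2.52, 11.4 and 11.1 fragments in knockout and 31.3, 50.5 and 60.3 fragments in non-target.

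FZD2, FZD4 and FZD9 had higher means in knockout and did not pass. FZD9 had 1.75, 2.74 and 4.37 FPKM in knockout and 1.40, 1.56 and 1.39 FPKM in non-target (log2 fold change 0.64, adjusted p = 0.121, and 0.00516 with a replicate block). FZD4, a receptor of retinal vessel growth, had 4.48, 2.57 and 2.09 FPKM in knockout and 2.16, 0.997 and 1.03 FPKM in non-target, with both replicate 1 libraries highest in their group and knockout replicate 3 below non-target replicate 1 (0.75, adjusted p = 0.102, and 0.000696 with the block). Exons of FZD4 overlap PRSS23 on the other strand. FZD2 had 1.85, 1.98 and 2.22 FPKM in knockout and 1.45, 1.07 and 1.09 FPKM in non-target (0.46, adjusted p = 0.0942, and 0.0499 with the block). FZD3 overlapped between the groups, at 1.29 to 1.81 FPKM in knockout and 1.26 to 1.84 FPKM in non-target.

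Of the 5 coreceptors, ROR2 fell and the other 4 did not pass. ROR2, a receptor tyrosine kinase family member that binds WNT5A, is encoded on chromosome 9 at 94325373 to 94712510. It had 0.389, 0.273 and 0.348 FPKM in knockout replicates 1 to 3, against 1.12, 1.24 and 1.38 FPKM in non-target replicates 1 to 3. The groups did not overlap, and the ratio of mean levels was 0.270 (log2 difference -0.75 ± 0.13, SE), given without a p because the filter let ROR2 in through the non-target libraries alone. Its relative ROR1 had 3.91, 3.75 and 2.20 FPKM in knockout and 2.24, 2.09 and 1.93 FPKM in non-target, with knockout replicate 3 inside the non-target range (log2 fold change 0.45, 95% interval -0.01 to 0.90, adjusted p = 0.201).

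The coreceptors of beta-catenin signalling overlapped between the genotypes, and the intervals of their differences span 0. LRP5 had 18.5, 15.9 and 13.4 FPKM in knockout and 14.4, 18.2 and 18.9 FPKM in non-target (log2 fold change -0.10, 95% interval -0.51 to 0.31, adjusted p = 0.776). LRP6 had 13.1, 9.86 and 4.26 FPKM in knockout and 12.1, 9.67 and 9.58 FPKM in non-target (-0.29, -1.01 to 0.43, adjusted p = 0.628). Knockout replicate 3 alone was low for LRP6, and without it the log2 fold change was 0.12. RYK, a coreceptor with an inactive kinase domain, had 14.9 to 16.7 FPKM in knockout and 13.6 to 15.6 FPKM in non-target (0.15, -0.19 to 0.50, adjusted p = 0.593).

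**Figure D3:**
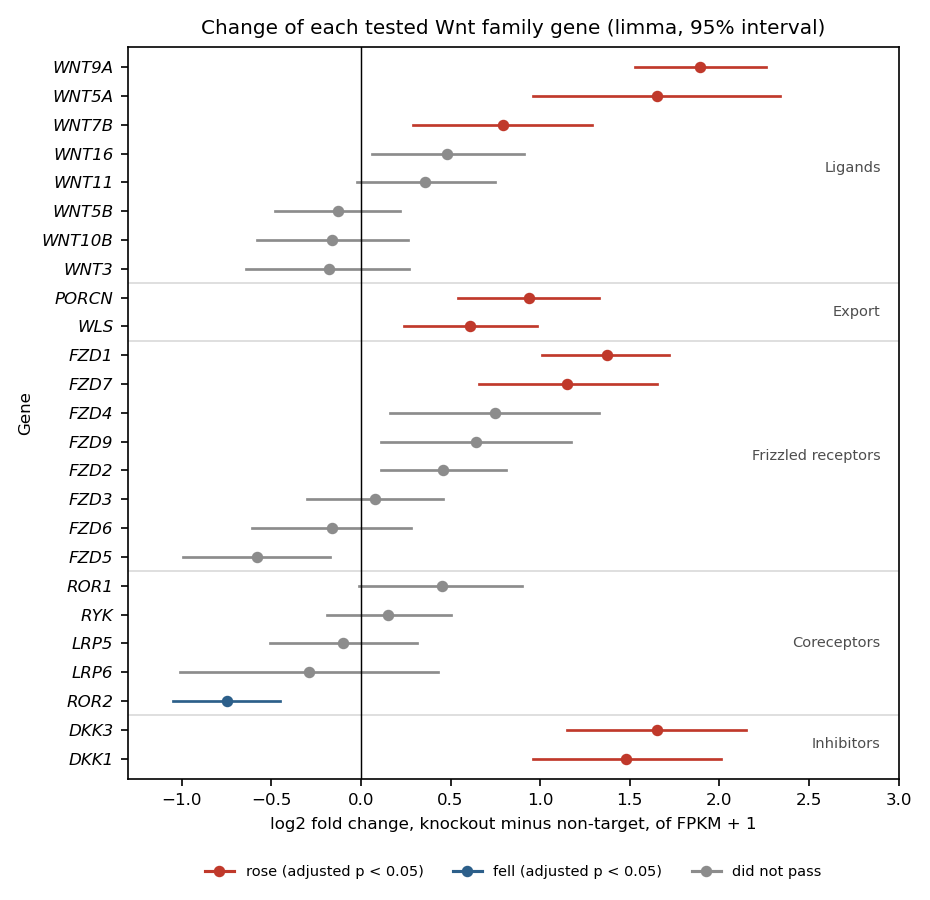
Log2 fold change, knockout minus non-target, of FPKM + 1 for each of the 25 tested Wnt family genes (points) with the 95% interval of the limma fit (lines), grouped by role and coloured by call. WNT9A stands farthest to the right at 1.89, and ROR2 is the gene that fell, at -0.75.

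The secreted inhibitors were almost entirely DKK1, which binds LRP5 and LRP6 and is itself a known beta-catenin target. DKK1 lies on chromosome 10 at 54074041 to 54077802. It had 206, 237 and 269 FPKM in knockout replicates 1 to 3, against 119.6, 72.1 and 68.0 FPKM in non-target replicates 1 to 3, the highest level of all members in every library. Non-target replicate 1 was again between the groups, at 1.71 times the mean of the other non-target libraries. In the limma fit the difference was 1.48 ± 0.23 log2 units (SE; adjusted p = 0.00271), and 1.74 without non-target replicate 1 (adjusted p = 0.00133). Exons of DKK1 overlap those of PRKG1-AS1 on the other strand.

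DKK3, a divergent relative of DKK1, had 6.94, 6.54 and 6.75 FPKM in knockout and 2.44, 0.993 and 1.19 FPKM in non-target. Its knockout libraries were close to each other, and non-target replicate 1 was the highest non-target library. By limma the knockout libraries differed by 1.65 ± 0.22 on the log2 scale (SE; adjusted p = 0.00111), and its exons overlap those of USP47 on the other strand. The other 5 inhibitors (DKK2, DKK4, SFRP1, SFRP4 and SFRP5) did not exceed 0.105 FPKM in any library. SFRP4 had 0.015, 0.047 and 0 FPKM in knockout and 0.105, 0.064 and 0.084 FPKM in non-target. DKK2, SFRP1 and SFRP5 were listed in non-target replicate 1 only, SFRP5 at an estimated 1.02 fragments, and DKK4 was at 0.056 FPKM in knockout replicate 3 and 0.045 FPKM in non-target replicate 3, or 1.08 and 0.90 fragments.

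Libraries numbered 1 stood apart from the others in both genotypes, so the members were also compared without both of them, on the same 13092 genes. This left 2 libraries per group. The non-target pair, replicates 2 and 3, correlated at 0.9968, so the spread of that group is the spread of nearly alike libraries. Then 13 of the 25 members rose and 1 fell, with 10.2% and 7.26% of all genes. All 10 members called with all libraries were among them, and the other 4 were FZD2, FZD4, FZD9 and WNT16. With the replicate number as a block 13 rose and 2 fell, against 13.5% and 11.8% of all genes. All 10 were again called, and the further 5 were FZD2, FZD4, FZD5, FZD9 and WNT16. With the level filter recomputed, 5 of 25 rose and 1 fell without knockout replicate 2, against 3.38% and 4.74% of all genes. Without non-target replicate 2, 6 of 24 rose and 0 fell, against 2.95% and 2.36%, and without non-target replicate 3 the counts were again 6 and 0, against 2.86% and 2.22%. ROR2 was not tested in the fits without a non-target library. With non-target replicates 2 and 3 counted as 1, 7 of 25 members rose and 1 fell, beside 416 and 528 of all 13092 genes. In bulk RNA a change in the share of cells that express a gene cannot be told apart from a change in RNA per cell.

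The RefSeq promoter set used here held 7 of the 10 called members, with no entry for DKK3, FZD7 and WNT7B. The 250 bases before the annotated start were read for 5 motifs on both strands. These were the TCF/LEF core (CTTTGA or CTTTGT), the GC box (GGGCGG), the TATA box (TATAAA), the AP-1 site (TGANTCA) and the NF-kB consensus. The 4 windows of members with 1 annotated start are shown, since they include the member with the largest change, the most abundant member and the member that fell. Capitals mark every match to a motif, and each sequence runs 5′ to 3′ on the gene's strand. Each matched the GRCh37 genome once near its gene, at chr1:228135634-228135883 (minus strand) for WNT9A, chr7:90893498-90893747 (plus) for FZD1, chr10:54073791-54074040 (plus) for DKK1 and chr9:94712511-94712760 (minus) for ROR2. The RefSeq table itself is on GRCh38.p14.
WNT9A: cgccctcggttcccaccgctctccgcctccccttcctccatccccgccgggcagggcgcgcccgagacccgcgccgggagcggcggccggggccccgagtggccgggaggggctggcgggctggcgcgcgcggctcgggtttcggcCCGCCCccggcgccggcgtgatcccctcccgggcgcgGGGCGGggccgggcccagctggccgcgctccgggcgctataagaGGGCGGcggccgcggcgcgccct
FZD1: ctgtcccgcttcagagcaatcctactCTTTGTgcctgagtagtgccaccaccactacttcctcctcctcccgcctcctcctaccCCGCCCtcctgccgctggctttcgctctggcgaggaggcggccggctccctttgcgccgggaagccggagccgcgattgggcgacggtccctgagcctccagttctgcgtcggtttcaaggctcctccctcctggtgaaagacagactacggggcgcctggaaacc
DKK1: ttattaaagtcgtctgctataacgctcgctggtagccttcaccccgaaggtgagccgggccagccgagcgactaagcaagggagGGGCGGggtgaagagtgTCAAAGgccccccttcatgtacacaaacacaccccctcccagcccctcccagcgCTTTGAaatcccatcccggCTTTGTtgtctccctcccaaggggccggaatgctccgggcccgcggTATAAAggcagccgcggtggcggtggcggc
ROR2: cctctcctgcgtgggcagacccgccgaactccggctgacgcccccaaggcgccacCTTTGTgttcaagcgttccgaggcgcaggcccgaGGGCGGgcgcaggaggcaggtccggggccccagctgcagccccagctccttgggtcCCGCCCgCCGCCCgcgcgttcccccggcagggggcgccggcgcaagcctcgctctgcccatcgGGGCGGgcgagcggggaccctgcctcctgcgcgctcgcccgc

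The DKK1 window held 3 TCF/LEF cores, which begin 149, 95 and 76 bases before the start, the first of them on the opposite strand, and a TATA box 30 bases before it. At least 1 TCF/LEF core was found in 22.8% of all 35116 promoter windows and a TATA box in 10.7%. FZD1 and ROR2 held 1 core each, 224 and 195 bases before the start, and WNT9A held none. The WNT9A window had a GC content of 84.4% and 3 GC boxes, ROR2 had 78.0% and 4, FZD1 65.2% and 1, and DKK1 62.8% and 1, where the median of all windows was 58% GC and 42.6% held a GC box. The AP-1 site and the NF-kB consensus, found in 6.57% and 9.96% of all windows, matched in none of the windows of the 7 members. WNT5A, with 2 annotated starts, had 1 GC box in 1 window and no other match. PORCN, also with 2 starts, had 2 GC boxes before start 1 and a TCF/LEF core 9 bases before start 2. WLS had no match in either of its 2 windows. These letters describe the windows and say nothing of binding, and the start used in LoVo cells is not known from these files.

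Outside the family, of 20 tested genes in a list of Wnt surface and secreted regulators 5 rose, 3 fell and 12 did not pass, against 6.26% and 5.93% of all genes. Their median log2 fold change was 0.25, beside 0.02 over all genes. LGR5, the R-spondin receptor of crypt stem cells, fell to 13.4, 18.0 and 11.9 FPKM in knockout replicates 1 to 3, against 41.8, 54.6 and 55.8 FPKM in non-target replicates 1 to 3 (log2 fold change -1.75, limma, adjusted p = 0.000477). Its relative LGR6 fell by 1.45 on the log2 scale (adjusted p = 0.0114, and 0.0517 without knockout replicate 2), and so did TRABD2A, a protease that inactivates Wnt ligands (-1.49, adjusted p = 0.00285). LGR4 had 15.3, 5.89 and 3.36 FPKM in knockout and 15.7, 14.3 and 14.0 FPKM in non-target, with the replicate 1 libraries alike (-0.99, adjusted p = 0.148). Its adjusted p with the block was 1.15e-06, but on each gene's own spread with the block 0 of all 13092 genes were called.

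The ubiquitin ligases that remove Frizzled from the surface, RNF43 and ZNRF3, did not pass. RNF43 had 21.1, 18.0 and 15.5 FPKM in knockout and 14.5, 22.5 and 22.9 FPKM in non-target (adjusted p = 0.798). ZNRF3 had 6.21, 7.001 and 4.60 FPKM in knockout and 3.899, 3.82 and 4.17 FPKM in non-target, without overlap (log2 fold change 0.47, adjusted p = 0.148).

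Both KREMEN genes, whose proteins bind DKK1 and with it withdraw LRP6 from the surface, rose. KREMEN2 had 7.32, 5.22 and 7.89 FPKM in knockout and 2.04, 1.33 and 1.28 FPKM in non-target (log2 fold change 1.61, limma, adjusted p = 0.000863). KREMEN1 had 17.7, 10.6 and 8.83 FPKM in knockout and 7.35, 3.31 and 3.77 FPKM in non-target (1.21, adjusted p = 0.0299), with replicate 1 highest in both groups, and leaving out knockout replicate 1 or 2, or non-target replicate 2 or 3, ended its call (highest adjusted p 0.0939), as did TPM scaling (0.0681) and counting non-target replicates 2 and 3 as 1 (0.0908). APCDD1, a membrane-bound inhibitor of ligand and receptor, had 97.6, 54.7 and 52.1 FPKM in knockout and 22.3, 5.74 and 6.16 FPKM in non-target (2.67, adjusted p = 0.00373). PTK7, a pseudokinase coreceptor of planar polarity, rose by 1.32 on the log2 scale. HHIP, known as a binder of Hedgehog ligands, had 4.63, 3.72 and 2.78 FPKM in knockout and 1.25, 0.404 and 0.541 FPKM in non-target (1.45). It met the level filter through the knockout libraries, so its rise, 1 of the 5 in this list, is a description.

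**Figure D4:**
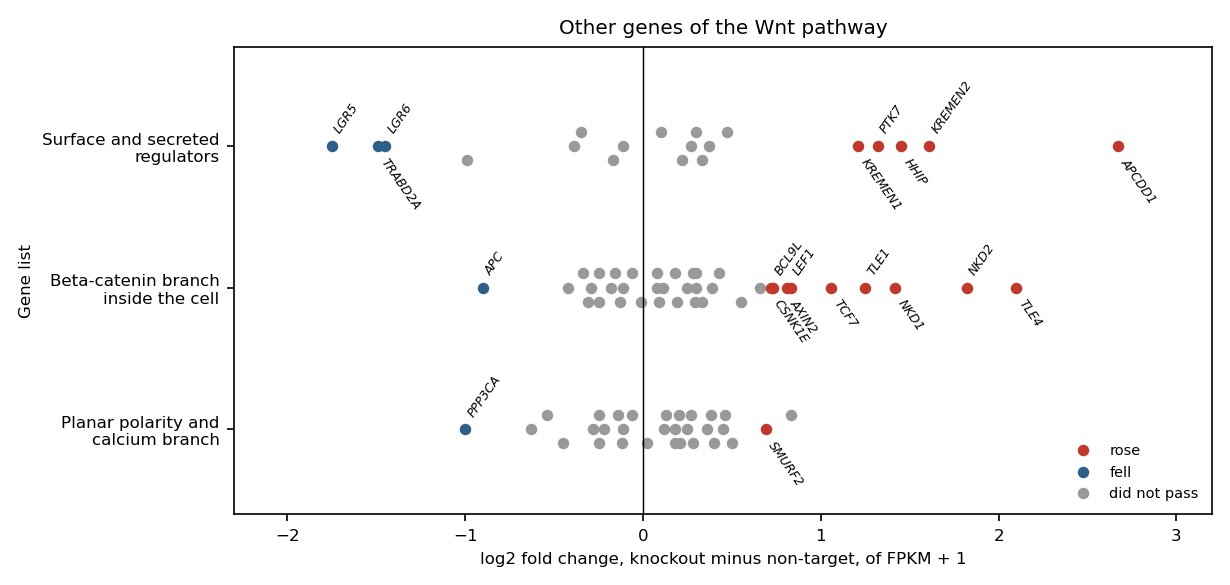
Log2 fold change, knockout minus non-target, of FPKM + 1 for the tested genes of 3 Wnt pathway lists, 1 point per gene, in red where it rose, blue where it fell and grey where it did not pass, with called genes named. Grey points are spread vertically for legibility only. Of 20 surface and secreted regulators 5 rose and 3 fell, of 38 beta-catenin branch genes 9 rose and 1 fell, and of 30 planar polarity and calcium genes 1 rose and 1 fell.

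Inside the cell, 9 of 38 tested genes of the beta-catenin branch rose, 1 fell and 28 did not pass, against 6.26% and 5.93% of all genes. The median was 0.22, beside 0.02 over all genes. The largest changes included the Groucho corepressors TLE4 and TLE1, which hold TCF targets off, and the Dishevelled inhibitors NKD2 and NKD1. TLE4 had 23.6, 23.8 and 19.0 FPKM in knockout and 7.33, 3.35 and 3.25 FPKM in non-target (ratio of means 4.76, limma, adjusted p = 0.000767). NKD2 had 61.6, 65.8 and 83.2 FPKM in knockout and 22.97, 17.8 and 16.7 FPKM in non-target (log2 fold change 1.82, adjusted p = 0.000273). NKD1, TLE1 and TCF7, a TCF family factor, rose by 1.42, 1.25 and 1.06 on the log2 scale. AXIN2 had 77.3, 86.4 and 71.1 FPKM in knockout and 45.1, 43.7 and 43.5 FPKM in non-target (0.81, limma, adjusted p = 0.00796). LEF1, BCL9L and CSNK1E rose by 0.83, 0.73 and 0.72 (limma, adjusted p = 0.00801, 0.0476 and 0.024). AXIN2 and LEF1 lost their calls without non-target replicate 2 or 3. BCL9L and CSNK1E also did not hold without each library (adjusted p up to 0.165 and 0.123). APC, the scaffold of the destruction complex, had 0.873, 2.098 and 1.05 FPKM in knockout and 2.98, 3.35 and 3.47 FPKM in non-target (-0.90, adjusted p = 0.0218, up to 0.0852 without a single library, and 0.0685 with non-target replicates 2 and 3 counted as 1). TCF7 lost its call without knockout replicate 2 or 3 or non-target replicate 1 (adjusted p up to 0.105), and in this list 5 genes rose and 0 fell without non-target replicate 2, against 2.95% and 2.36% of all genes. The counts were the same without non-target replicate 3, against 2.86% and 2.22%.

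In the planar polarity and calcium branch 1 of 30 tested genes rose, 1 fell and 28 did not pass, or 3.33% each way, near or below the 6.26% and 5.93% of all genes. The median log2 fold change was 0.15. The calcineurin subunit PPP3CA had 11.8, 16.7 and 11.9 FPKM in knockout and 22.0, 30.6 and 31.4 FPKM in non-target (ratio of means 0.482, limma, adjusted p = 0.0110). SMURF2, a ubiquitin ligase of planar polarity proteins, rose by 0.69 on the log2 scale (adjusted p = 0.0317). Their calls did not hold without each library, with adjusted p of 0.0511 for PPP3CA without non-target replicate 3 and up to 0.137 for SMURF2, which also did not pass with TPM scaling (0.127). With a replicate block 5 genes of this list rose (16.7%) and 3 fell (10%), close to the 13.5% and 11.8% of all genes in that fit.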

How the data were processed

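Poly-A RNA was sequenced from dUTP strand-marked libraries, per the labels' protocols. The series' design text says that reads were trimmed and mapped to hg19 by TopHat2 2.1.1, and that the authors obtained FPKM from STAR 2.7.10b, and the submitters' processing notes name the same tools. No source says whether strand was used in counting. Each deposited list pairs a symbol with its FPKM to 3 decimals, and a symbol missing from a list was set to 0. Gene positions come from a GENCODE annotation of GRCh37, which named 89.0% of symbols. Whole fragments were not recovered, so no count test was run. The fragments per library were estimated in genes with 1 transcript, as the step on which FPKM times length gathers within 2%. At that step 74 to 103 of 697 to 820 low values lay on 1 or 2 fragments, against 18 to 21 at the median step, so the depth is an estimate.

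The 2-sided test was limma 3.58.1 (R 4.3.3) on log2(FPKM + 1), with moderated variances that follow the level and resist outliers, over 13092 genes at 1 FPKM or more in at least 3 of 6 libraries, with a threshold of 0.05. The members and lists were chosen with earlier results of these data known. All members are named, with up to 6 called genes of each list with the largest change, SHARPIN, LGR5, RNF43 and ZNRF3. LGR4, KREMEN1, PTK7, LEF1, AXIN2, BCL9L and CSNK1E were named after their values were seen. Same-numbered libraries deviated together, with correlations of 0.547, 0.309 and 0.331 for replicates 1, 2 and 3. Pairing by number was used only in an alternative fit with a block, not in the main test. Across numbers 2 and 3 the correlations were 0.320 and 0.321, about as high, so the pairing rests on number 1, and the labels state none. In the blocked fit 86.4% of genes took their spread wholly from other genes. Alternatives were other pseudocounts (0.1 and 0.5), filters, scalings, weights, a block, and libraries left out.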

Additional observations from a re-analysis of the deposited data

How the results depend on the processing

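All 10 called members kept their direction under every setting in which they were tested, and DKK1, DKK3, FZD1, PORCN and WNT9A kept the call without any 1 library on the 13092 genes. So did ROR2, which the filter let in through the non-target libraries alone and which went untested without any 1 of them once the filter was recomputed. PORCN then lost its call without non-target replicate 2 or 3. The count of called members, 10, became 6 with a mean of at least 5 FPKM, 15 when replicate numbers entered as a block and 17 with array weights, and ran from 6 to 10 without single libraries. Of all 13092 tested genes 1597 were called, and with that filter 865 of 8547. The count was 5269 with array weights, 3309 with a replicate block and 944 with non-target replicates 2 and 3 counted as 1. Without single libraries it was 648 to 1869 (911 to 1970 on the 13092 genes, with 911 and 958 the counts without non-target replicates 3 and 2). The regulator list, 8 of 20, gave 17 with array weights. The beta-catenin list, 10 of 38, gave 23 with array weights, 5 with non-target replicates 2 and 3 counted as 1, and 5 to 9 without single libraries. The planar polarity list, 2 of 30, gave 1 with TPM scaling, 16 with array weights, 8 with the block, 1 with those replicates counted as 1, and 0 to 2 without single libraries. On each gene's own spread, chosen after seeing the data, 715 genes and 4 members (DKK3, FZD1, ROR2 and WNT9A) were called, with 2, 5 and 0 in the 3 lists. With the block added all of these were 0, where 2598 genes, 9 of the members among them, had an unadjusted p under 0.05 and the lowest adjusted p was 0.0834. Log2 fold changes that turned their sign did not pass in either setting: FZD6 (0.14) and WNT3 (0.03) with array weights, WNT3 without both libraries numbered 1 (0.02), and LRP5 (-0.22 to 0.01), LRP6 (-0.59 to 0.12) and WNT3 (-0.30 to 0.02) without single libraries. The cause of these changes was not tested.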

Other observations

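Symbols that resemble those of the Wnt family but lie outside it were mostly near 0. DKKL1, a relative of DKK3 expressed in testis, was at 0.433, 0.415 and 0.177 FPKM in knockout replicates 1 to 3 and at 0.123, 0.187 and 0 FPKM in non-target replicates 1 to 3, and the groups overlapped. ROR1-AS1 was listed in knockout replicate 2 only, at 0.045 FPKM, and FZD10-DT had at most 0.087 FPKM. LRP5L, a partial copy of LRP5, had 4.41, 3.22 and 3.27 FPKM in knockout and 4.13, 4.02 and 4.46 FPKM in non-target.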
